A study of Mus musculus with 101 samples.

Results

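Mammary adenocarcinomas that had lost Brca2 together with Trp53 were set against mammary adenocarcinomas that had lost Trp53 alone, so that histology was the same in both groups and Brca2 was the contrast. The comparison took every tumour whose histology label was adenocarcinoma and whose genotype label was KB2P (n = 25) or KP (n = 6), 31 of the 101 samples of a mouse series that holds 98 tumours and 3 spleens. In the usual naming of these conditional models, KB2P mice carry floxed Brca2 and floxed Trp53 and KP mice floxed Trp53, with Cre recombinase driven by a keratin 14 promoter, so that the alleles are deleted in epithelial cells and both groups lack Trp53. All 31 tumours were labelled 100% epithelial. Ages and strain backgrounds were not used here, and the labels do not tie tumours to animals, so the tests weigh differences against the spread between these samples and no more.

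Brca2 is a central factor of homologous recombination, which repairs double-strand breaks from an intact copy of the sequence. Cells without it join breaks by less accurate routes, and their chromosomes are known for many broken and rejoined segments. Trp53 encodes the p53 tumour suppressor, whose loss lets cells with damaged chromosomes go on dividing. The measurements were made by low-coverage sequencing of tumour DNA, which reads the number of copies of each stretch of the genome but no sequence change and no expression.

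Each gene had a log2 ratio of read depth, a log2 segment value, which is that ratio after neighbouring bins of like depth were merged, and a whole-number copy score in which 2 is neutral. A score above 2 is called a gain here, and the lowest segment value that gives it is 0.32; a score under 2 is called a loss, from -0.42 downwards. The tables held 43513 gene symbols, of which 32691 could be placed on a chromosome. Noise, taken as the median step of the log2 ratio between neighbouring genes after subtraction of the segment value, averaged 0.0496 in KB2P and 0.0507 in KP tumours (exact permutation test, two-sided p = 0.804). The 3 spleens, none of them labelled KB2P, had no altered call in any gene.

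Tumours KB2P 24 and KB2P 26 had nearly the same profile. Their segment values correlated at r = 0.986, while the next closest of the 300 KB2P pairs reached 0.474 and the closest of the 15 KP pairs 0.273. They came from different library series, the slope of KB2P 26 on KB2P 24 was 0.908, and of the steps over 0.1 in size, 217 in KB2P 24 and 206 in KB2P 26, 156 lay between the same 2 genes. Both were kept as labelled, and the genome-wide measures, chromosome tests and gene fits were also computed without either of them. Genotype and library series cannot be told apart: the KB2P tumours came from series 3196 (n = 20) and 3499 (n = 5), the KP tumours from series 5490 (n = 4) and 5289 (n = 2).

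The question addressed first was how broken the genomes were. KB2P genomes were cut into far more large pieces. Large-scale transitions, changes of copy number between neighbouring segments of at least 10 Mb after removal of segments under 3 Mb, numbered 20.8 ± 6.39 in KB2P tumours against 4.50 ± 3.27 in KP tumours (mean ± SD, n = 25 and 6). The KB2P tumours ran from 10 through a median of 21 to 30. The KP values were 1 in tumour 39, 7 in tumour 40, 8 in tumour 89, 0 in tumour 90.1, 6 in tumour 131.03A and 5 in tumour 236.1. Every KB2P tumour thus lay above every KP tumour. The exact two-sided permutation p over the 736281 splits was 1.36e-06, the smallest they can give, and 1.22e-05 after Benjamini-Hochberg adjustment over the 9 genome-wide measures.

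Chromosomes altered in part moved the same way. On average 10.3 ± 3.23 chromosomes of a KB2P tumour and 2.5 ± 2.43 of a KP tumour were changed over at least 10% of the placed genes without a gain or a loss reaching 80% of its genes (exact permutation, adjusted p = 9.17e-05). The KB2P tumours ran from 3 through 12 to 16, and 20 of the 25 lay above the highest KP tumour, at 6. Changes of whole chromosomes, at least 80% of the genes in 1 direction, were not shown to differ: 2.52 ± 2.02 in KB2P and 2.00 ± 1.1 in KP tumours (exact permutation, adjusted p = 0.560). Summed over the tumours, KB2P held 257 chromosomes changed in part and 63 changed as a whole, out of 500, and KP held 15 and 12, out of 120. Of the whole-chromosome changes, 28 were gains and 35 losses in KB2P, against 2 gains and 10 losses in KP.

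**Figure D1:**
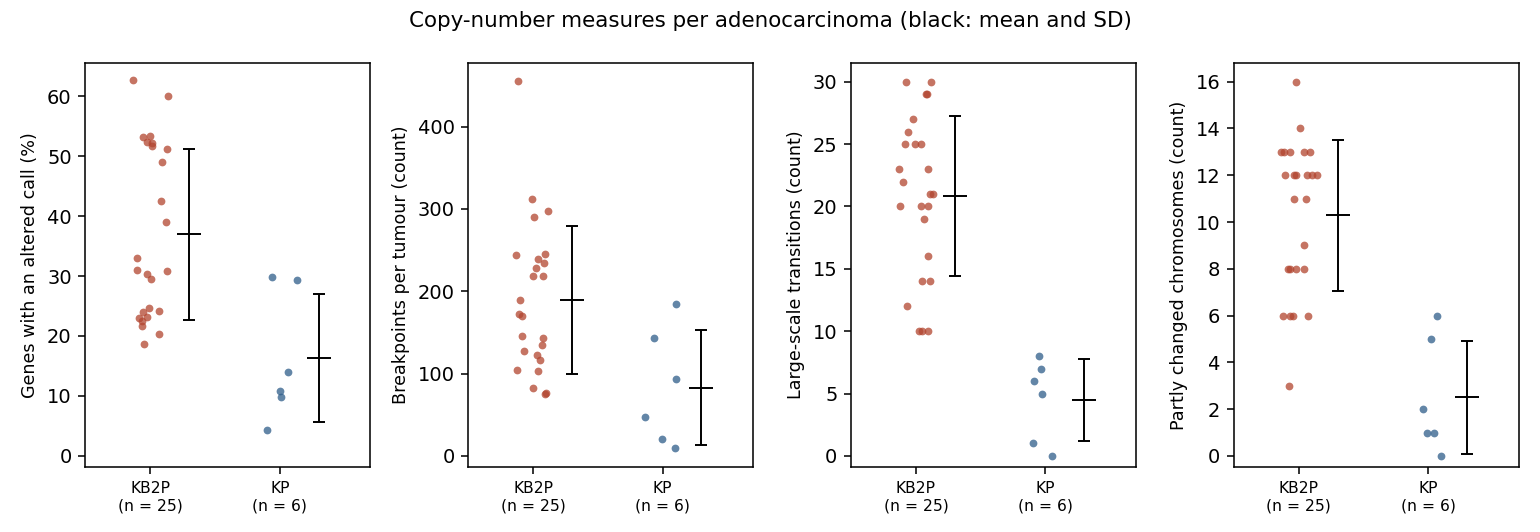
Altered share of gene calls (percent), breakpoints, large-scale transitions and partly changed chromosomes (counts per tumour) in 25 KB2P and 6 KP adenocarcinomas; each point is a tumour, and the black bar gives the mean and SD. Large-scale transitions do not overlap between the groups, from 10 to 30 in KB2P and from 0 to 8 in KP, while the other measures overlap.

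Every length class under 50 Mb held more segments on average in KB2P than in KP tumours. KB2P tumours had 36.2 ± 10.8 segments of 10 to 50 Mb and KP tumours 10.2 ± 7.86. Segments of over 50 Mb numbered 16.5 ± 3.25 in KB2P and 20.2 ± 2.14 in KP tumours. Those of 1 to 10 Mb numbered 53.1 ± 29.9 in KB2P and 25.0 ± 21.9 in KP tumours. Segments under 1 Mb numbered 103.9 ± 56.4 in KB2P tumours, from 33 to 285, and 47.5 ± 42.2 in KP tumours, from 6 to 105. These lengths are given as a description with no test.

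Breakpoints of any size and the altered share of the genome were also higher in KB2P, with overlap. Breakpoints averaged 189.7 ± 90.1 in KB2P and 82.8 ± 70.0 in KP tumours (exact permutation, adjusted p = 0.0213). The KB2P counts ran from 75 to 455 and the KP counts from 10 in tumour 39 to 184 in tumour 89. The altered share averaged 37.0% ± 14.3 of genes in KB2P and 16.4% ± 10.7 in KP (adjusted p = 0.00746, exact permutation), and 15 of 25 KB2P tumours lay above the highest KP tumour. Gained calls took 17.9% ± 12.3 of genes in KB2P and 4.24% ± 4.76 in KP (exact permutation, adjusted p = 0.0213). Lost calls took 19.1% ± 6.17 in KB2P and 12.1% ± 7.40 in KP (exact permutation, adjusted p = 0.0349).

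The measures differed in how far they held. Without KP 39, 90.1 or 236.1 in turn the adjusted exact permutation p of the breakpoint and gained-share differences lay between 0.0510 and 0.0676, and without KP 39, 40, 90.1 or 236.1 that of the lost share lay between 0.0521 and 0.138. The transitions and partly changed chromosomes kept an adjusted exact p of at most 0.000474 without any 1 KP tumour.

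Changes too weak for a call were common in KP tumours. Genes whose segment lay more than 0.1 from 0 but whose score was neutral took 19.5% ± 16.0 of genes in KB2P and 32.4% ± 22.5 in KP tumours. Counting every gene beyond 0.1, the altered share was 56.5% in KB2P and 48.8% in KP, which was not shown to differ (exact permutation, adjusted p = 0.416). The lost share was then 29.6% in KB2P and 32.5% in KP, the opposite order to that of the calls (exact permutation, adjusted p = 0.564). Beyond 0.2 the altered share was 49.8% in KB2P and 32.5% in KP (exact permutation, adjusted p = 0.0305), and the lost share was not shown to differ (adjusted p = 0.830). Beyond 0.3 the altered share was 42.4% in KB2P and 17.3% in KP (exact permutation, adjusted p = 0.00134). The lost share beyond 0.3 was 23.3% in KB2P and 13.1% in KP (exact permutation, adjusted p = 0.0107). With segments joined within 0.2 in place of 0.1, transitions numbered 18.7 in KB2P and 3.83 in KP. Joined within 0.05, they numbered 20.6 in KB2P and 4.17 in KP. Joining only merges segments already made, so no joining threshold can show whether weak steps were missed in KP tumours. Whether the share of tumour cells differed between the groups was not tested.

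High-level gains, with segments at 1 or above, covered 1.34% ± 1.09 of genes in KB2P and 0.631% ± 0.814 in KP, and deep losses, at most -1, covered 0.440% ± 0.716 in KB2P and 0.0437% ± 0.107 in KP. Neither was shown to differ, with adjusted exact permutation p of 0.185 for gains and 0.207 for deep losses. Deep loss was found in 1 of 6 KP tumours, tumour 89.

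Within the 25 KB2P tumours, tumours with a larger altered share tended to have more large-scale transitions, with Pearson r = 0.433 (permutation p = 0.0315) and Spearman rho = 0.399 (permutation p = 0.0489). Leaving out tumours 24 and 51, the farthest from the median altered share, gave r = 0.459, and the 20 tumours of series 3196 alone gave r = 0.465 (permutation p = 0.0384). Series 3499 held too few tumours for a value. Without tumour KB2P 26, the near copy of KB2P 24, r was 0.407 with a permutation p of 0.050, at the edge of the threshold. Tumours with altered shares less than 2 percentage points apart could differ widely: KB2P 31 had 24.6% of genes altered and 30 transitions, and KB2P 36 had 23.0% altered and 10 transitions.

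Transitions were spread over the whole genome. They were found on all 20 chromosomes in KB2P, 521 in all, and on 13 chromosomes in KP, 27 in all. Chromosome 7 held the most in KB2P, 59 in 24 of 25 tumours, against 5 in 3 of 6 KP tumours. Chromosome 1 followed with 43 in 19 KB2P tumours, against 1 in 1 KP tumour. Chromosomes 15 and 17 held the fewest, 13 each in KB2P, as did chromosome 18.

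On chromosome 7 the transitions recurred at the same places. Windows of 3 Mb along the genome held a transition in at most 5 KB2P tumours, except for 2 windows of chromosome 7. Between 66 and 69 Mb there was one in 16 KB2P tumours and in 1 KP tumour, and between 42 and 45 Mb in 13 KB2P tumours and in 0 KP tumours. Counting every step left after short segments were removed, a downward step lay between 43.4 and 45.3 Mb in 17 of 25 KB2P tumours, with a median of -0.17, and an upward step between 65.9 and 68.4 Mb in 17, with a median of 0.15. KP tumours had 0 of these downward steps, and 1 had the upward step.

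The stretch between the 2 places therefore lay slightly lower than its surroundings in most KB2P tumours. The median segment value of the 249 placed genes from 45 to 65 Mb, minus the mean of the medians of the stretches on both sides (24 to 42 Mb and 72 to 90 Mb), was between -0.20 and -0.10 in 12 of 25 KB2P tumours and under -0.20 in 4 more. The median over the 25 was -0.14 and the highest value 0.31. In KB2P 30 the inside lay at -0.18 and the flanks at -0.021, and in KB2P 10 the inside lay at -0.86 and the flanks at -0.72. The difference was -0.33 in KP 89 and between -0.070 and 0.10 in the other KP tumours, and it was 0 in the 3 spleens. It was chosen after its values were seen and has no test. Without chromosome 7, transitions numbered 18.5 in KB2P and 3.67 in KP (exact permutation p = 1.36e-06).

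**Figure D2:**
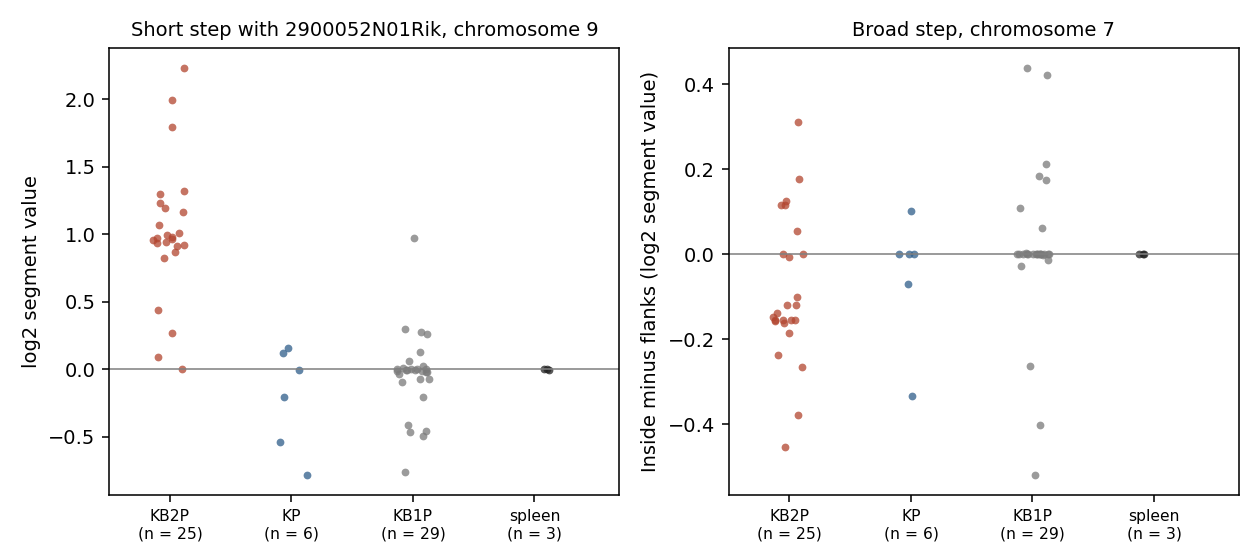
Left: log2 segment value of 2900052N01Rik on chromosome 9; right: chromosome 7 segment value inside the recurrent stretch minus its flanks; both for 25 KB2P, 6 KP and 29 KB1P adenocarcinomas and 3 spleens, each point a sample. The KB2P median is 0.97 on the left and -0.14 on the right, the KB1P medians are -0.0080 and 0, and the spleens lie at or next to 0 on both.

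The next question was whether particular chromosomes were gained or lost more in KB2P. None of the 20 chromosomes passed the test on its mean segment value after adjustment over the 20, and 1 had an unadjusted exact permutation p under 0.05. That was chromosome 12, which averaged -0.19 ± 0.29 in KB2P and -0.55 ± 0.21 in KP (exact permutation p = 0.00809, adjusted p = 0.162). Lost calls took 37.6% of its gene calls in KB2P tumours and 75.3% in KP tumours. All KP tumours had a negative mean there, between -0.84 and -0.22.

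Other chromosomes were also altered often in KB2P. Chromosome 6 had gained calls in 41.5% of gene calls in KB2P and 11.2% in KP, and lost calls in 0.921% in KB2P and 18.3% in KP. Chromosome 8 had lost calls in 45.0% in KB2P and 12.0% in KP. Chromosome 13 had lost calls in 39.4% in KB2P and 16.7% in KP, and chromosome 14 in 34.1% in KB2P and 28.9% in KP. Chromosome 10 carried both kinds in KB2P, 26.1% gained and 30.8% lost, against 1.13% gained and 10.7% lost in KP. The mean segment values of these chromosomes were not shown to differ, with adjusted exact permutation p between 0.853 and 0.937.

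**Figure D3:**
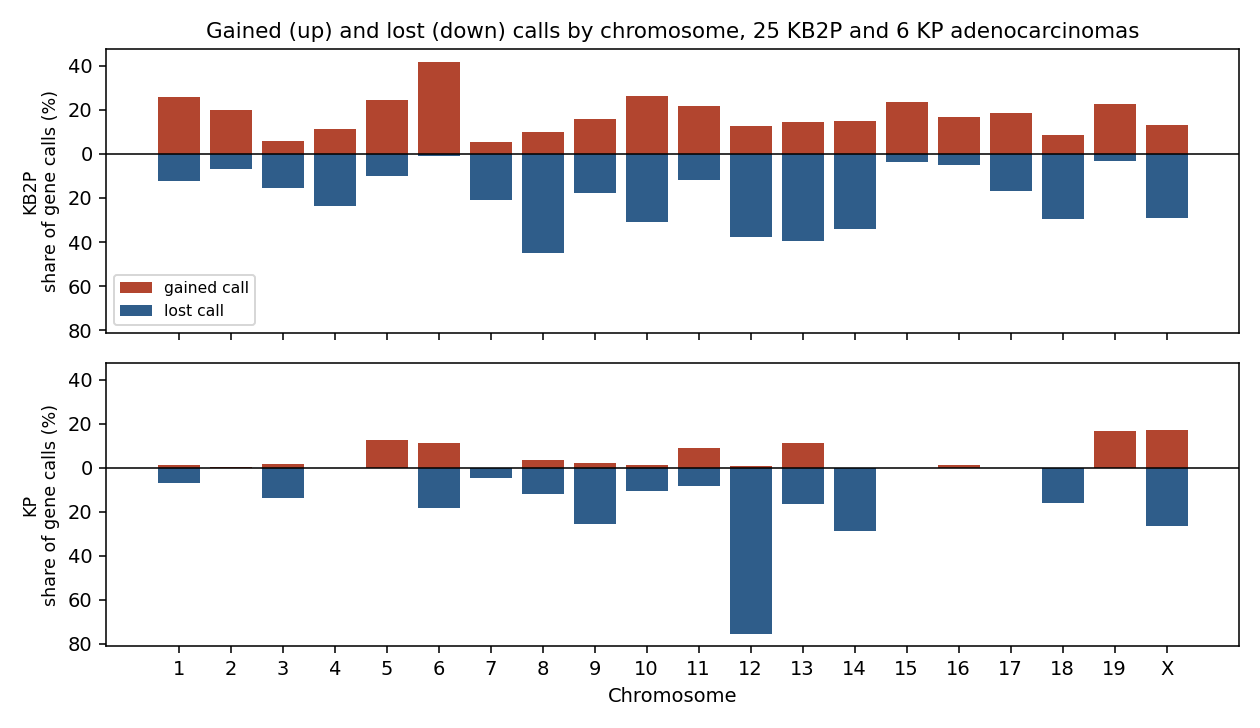
Share of gene calls gained (red, up) and lost (blue, down) on each chromosome, in percent of placed genes times tumours, for 25 KB2P tumours (top) and 6 KP tumours (bottom). Chromosome 6 is gained in 41.5% of KB2P calls, and chromosome 12 is lost in 75.3% of KP calls.

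**Figure D4:**
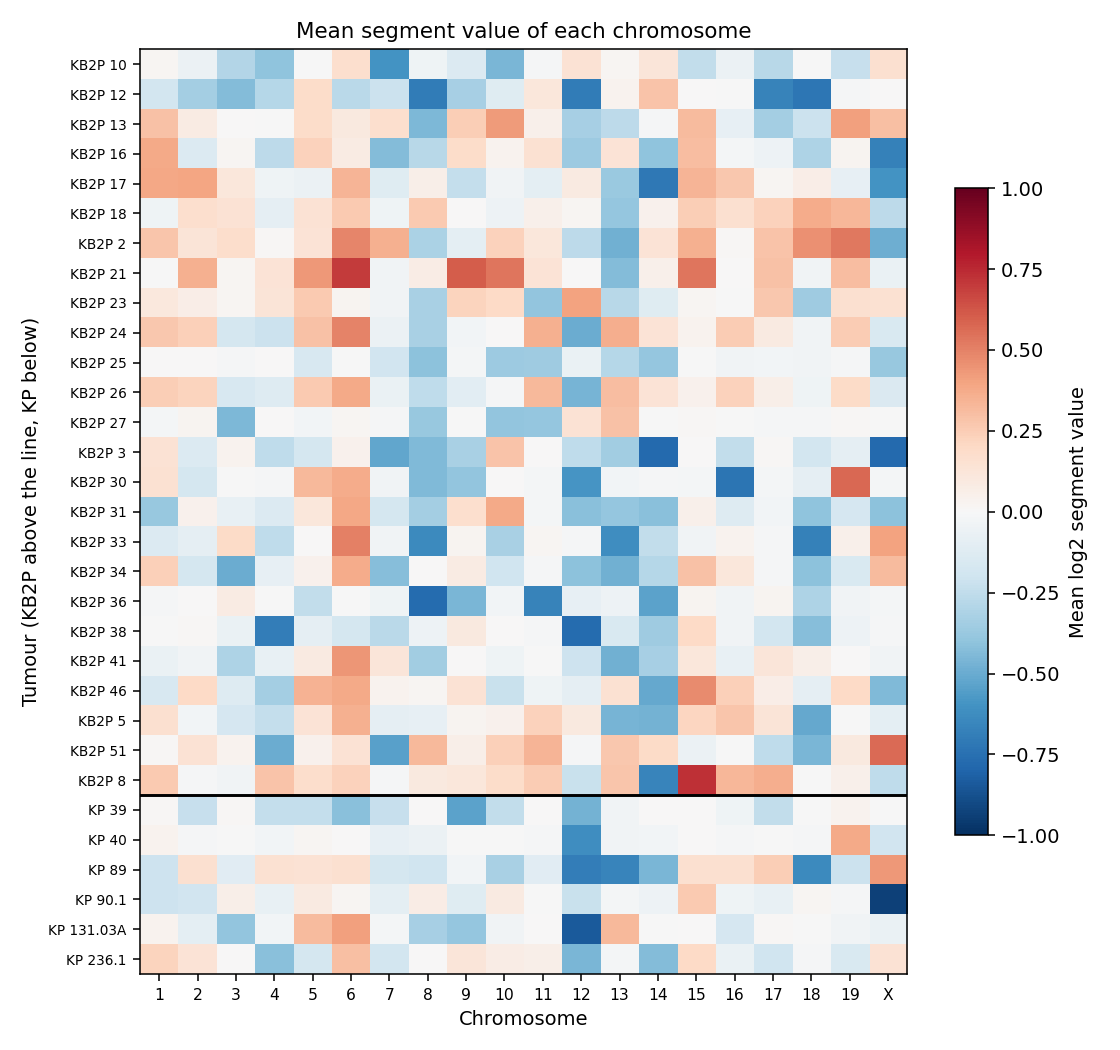
Mean log2 segment value of each chromosome (left to right) in each tumour (top to bottom), KB2P above the black line and KP below it; red is above 0, blue below, and the colour scale runs from -1 to 1. Chromosome 12 is below 0 in all 6 KP tumours, and KB2P tumours 24 and 26 have nearly the same colours throughout.

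Segment values were then compared gene by gene with limma, KB2P minus KP, with Benjamini-Hochberg adjustment over all 43513 genes. The test called 3 genes at an adjusted p under 0.05, all higher in KB2P, which is 0.00689% of the genes tested. At an unadjusted p under 0.05 there were 2907 genes, 6.68% of those tested, 2624 of them higher in KB2P and 283 lower. The smallest adjusted p after the 3 was 0.429. The median standard error of a difference was 0.15, and genes of 1 segment give 1 value many times over. Gains and losses counted as calls gave 0 genes at an adjusted p under 0.05 by Fisher's exact test (0% for gains and 0% for losses), with 600 genes for gains and 905 for losses at an unadjusted p under 0.05.

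The 3 called genes, 2900052N01Rik (chr9:46913603-46927366, GRCm38), Gm4791 (chr9:46998741-47003860) and Gm47153, which had no position in the gene table, shared a segment value in every tumour. In KB2P the segment value ran from 0.0025 through a median of 0.97 to 2.23, and 22 of 25 tumours had a gain. In KP it was -0.53 in tumour 39, -0.0072 in tumour 40, 0.16 in tumour 89, -0.21 in tumour 90.1, -0.78 in tumour 131.03A and 0.12 in tumour 236.1, so that 0 of 6 had a gain and 2 had a loss. The difference was 1.22 ± 0.21 (SE; limma, adjusted p = 0.0104).

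The step was short. The placed gene before it, Gm31614, had a median of 0.014 in KB2P with 4 tumours gained, and the next gene but 1 after it, Gm31816, a median of -0.0027 with 5 gained, while Gm31698 between them had 0.48 with 21 gained. KB2P tumours of both library series carried it, 17 of 20 in series 3196 and 5 of 5 in series 3499. Among 29 adenocarcinomas of KB1P mice, in which Brca1 takes the place of Brca2, 1 had a gain there, and the 3 spleens lay between -0.0014 and 0.0013. No spleen of a KB2P mouse was analysed here, so whether this step, and those on chromosomes 7 and 18, were inherited, acquired by the tumours or technical was not tested; a gain here is a copy call and no more. The call was lost without KP tumour 39 (limma adjusted p = 0.122), without 90.1 (0.0523) or without 131.03A (0.172), with the difference between 1.11 and 1.30 over the 6 fits that left out 1 KP tumour.

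Another short recurrent step was found on chromosome 18. Thoc1 (chr18:9958180-9995484), a subunit of the complex that couples transcription to mRNA export, and its neighbour Usp14 were gained in 20 of 25 KB2P tumours and 0 of 6 KP tumours. Thoc1 was named for its count of gains in KB2P, so no p-value is set beside these counts. The segment value of Thoc1 ran from -0.71 through a median of 0.61 to 1.04 in KB2P. The KP values were within 0.021 of 0 except for -0.65 in tumour 89. Rock1, the next placed gene, was gained in 3 KB2P tumours. On the other side the edge was less plain. Colec12 was gained in 14 KB2P tumours, with a median of 0.29, and Gm23350, which lies within its span, in 3. The limma difference of Thoc1, 0.59 ± 0.17 (SE), did not pass (adjusted p = 0.437).

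The engineered genes were examined next. Brca2 (chr5:150522297-150570147) had a segment value from -0.076 through 0.44 to 0.82 in KB2P and of -0.24, 0.087, -0.19, 0.086, 0.44 and -0.18 in KP tumours 39, 40, 89, 90.1, 131.03A and 236.1, the order used for KP values from here on. The region was called gained in 15 of 25 KB2P and 1 of 6 KP tumours and lost in none of the 31. The limma difference was 0.40 ± 0.13 (SE, unadjusted p = 0.00323, adjusted p = 0.459). A value built from bins of 20 kb and merged into segments does not resolve single exons, so it does not test the deletion.

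Trp53 (chr11:69580348-69591873) averaged -0.055 ± 0.32 in KB2P and 0.059 ± 0.23 in KP (SD, n = 25 and 6; limma adjusted p = 0.998), and its value likewise does not test the deletion that both groups carry. Brca1, the partner of Brca2 in recombination and not engineered in either model, averaged -0.069 ± 0.32 in KB2P and -0.17 ± 0.34 in KP. Brca1 was called gained in 4 and lost in 4 of 25 KB2P tumours, and gained in 0 and lost in 1 of 6 KP tumours. Its lowest KP value was -0.85 in tumour 131.03A, where Trp53 on the same chromosome stood at 0.51.

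Of the 140 genes on the 10 lists examined, 137 were in the tables. At an adjusted p under 0.05 limma called 0 of them, beside 3 of all 43513 genes, and Fisher's exact test likewise called 0. At an unadjusted Fisher p under 0.05 there was 1 listed gene for gains and 4 for losses, beside 600 and 905 of all 43513 genes. By limma, 13 had an unadjusted p under 0.05, or 9.49% beside the 6.68% of all genes, 11 of them higher in KB2P and 2 lower. The median difference of the listed genes was 0.033, against 0.034 over all genes. They were gained in 18.9% of KB2P calls and 4.62% of KP calls, close to the 17.9% and 4.24% of all genes.

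Among 21 recombination genes, 3 (14.3%, beside 6.68% of all genes) had an unadjusted limma p under 0.05, all higher in KB2P. They lay on chromosomes 12 and 6, where 41.7% and 30.4% of placed genes had such a p. The median difference of the 21 was 0.016. Xrcc3 (chr12:111803192-111813893), which acts in homologous recombination, had a segment value from -0.77 through -0.0016 to 1.34 in KB2P and of -0.54, -0.62, -0.64, -0.22, -0.84 and -0.62 in KP. It was called lost in 4 of 25 KB2P and 5 of 6 KP tumours (Fisher's exact test, unadjusted p = 0.00388), and the difference of 0.65 ± 0.20 (SE) had a limma adjusted p of 0.459. Rad51b, another recombination gene, on the same chromosome at chr12:79297282-79848260, was lost in 13 of 25 KB2P and 5 of 6 KP tumours. Rad52, which anneals single strands, on chromosome 6, averaged 0.28 ± 0.36 in KB2P and -0.080 ± 0.23 in KP (limma adjusted p = 0.607). Dna2, a nuclease of end resection, reached at least 1 in 3 KB2P tumours and in 0 KP tumours.

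Of the 7 listed genes that limit resection of DNA ends, 6 were in the tables. Of these, 0 had an unadjusted limma p under 0.05, beside 6.68% of all genes. Dynll1, a partner of the 53BP1 protein, ran from -0.83 to 1.63 in KB2P and from -0.24 to 0.44 in KP. The 2 KB2P tumours at 1 or more were 24 and 26, the pair with nearly the same profile, so that 1 remains without either. Shld1, a subunit of shieldin, averaged 0.021 ± 0.16 in KB2P and -0.043 ± 0.16 in KP.

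None of the 12 genes of PARP function and end joining passed at an unadjusted limma p under 0.05, beside 6.68% of all genes. Xrcc5, which encodes the Ku80 end-binding protein, reached 2.53 in KB2P, with 2 tumours at 1 or more and 9 gained, against 0 gained in KP. Xrcc4, the ligase partner in end joining, was lost in 11 of 25 KB2P and 1 of 6 KP tumours (Fisher's exact test, unadjusted p = 0.363). On chromosome 9, 27.3% of placed genes had an unadjusted limma p under 0.05. Of the 10 checkpoint genes, 2 (20%, beside 6.68% of all genes) did so, both on that chromosome and higher in KB2P. They were Mre11a, which senses breaks, with a mean of 0.25 ± 0.43 in KB2P and -0.11 ± 0.26 in KP, and the kinase gene Chek1, with 0.12 ± 0.37 in KB2P and -0.22 ± 0.40 in KP. Both had a limma adjusted p of 0.730.

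Of the 17 receptor and signalling genes measured, 3 (17.6%, beside 6.68% of all genes) had an unadjusted limma p under 0.05, 1 higher and 2 lower in KB2P. Met (chr6:17463349-17573980), the receptor of hepatocyte growth factor, stood at 4.22 in KP tumour 39 and 4.28 in KP tumour 236.1 and between -0.078 and 0.16 in the other 4, while KB2P values ran from -0.92 through 0.0027 to 0.60. High-level gain of Met was thus found in 0 of 25 KB2P and 2 of 6 KP tumours. The difference of -1.37 ± 0.39 (SE) did not pass (limma adjusted p = 0.429) and was -0.80 without the KP tumour whose removal moved it most.

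Genes that are often amplified differed in where the high-level gains fell. Lin28b (chr10:45376617-45486314), an RNA-binding protein that blocks maturation of let-7 microRNAs, had a segment value from -0.45 through 0.48 to 2.89 in KB2P and of -0.24, 0.25, -0.52, 0.090, -0.032 and 0.073 in KP. It was gained in 16 of 25 KB2P and 0 of 6 KP tumours (Fisher's exact test, unadjusted p = 0.00680), and 8 KB2P tumours, 24 and 26 among them, had at least 1. The limma difference was 0.84 ± 0.36 (SE, adjusted p = 0.607). The highest count on chromosome 10, 17 KB2P tumours, was shared by 17 genes spread over chr10:45807704-68782655. Among them Gpx4-ps2, at chr10:45875290-45876066 and less than 1 Mb from Lin28b, was gained in 0 KP tumours.

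Myc (chr15:61985341-61990361), a transcription factor of growth genes, ran from -0.017 through 0.29 to 2.27 in KB2P, with 11 tumours gained and 4 at 1 or more, 24 and 26 among these. In KP it was 0.0024, 0.0029, 0.16, 0.26, 0.0032 and 0.18, with 0 gained (limma adjusted p = 0.957). The neighbouring noncoding gene Pvt1 had the same counts. Yap1, the effector of the Hippo pathway, and the apoptosis inhibitors Birc2 and Birc3, which share a segment on chromosome 9, reached 3.95 in KP tumour 90.1 and 1.47 in the highest KB2P tumour. Their median was 0.025 in KB2P, and the other KP values ran from -0.83 to 0.16.

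KP tumour 131.03A carried several high-level gains that no other KP tumour had, in genes that also reached 1 or more in KB2P tumours. Cul4a, a scaffold of a ubiquitin ligase, stood at 2.88 there and reached 2.48 in KB2P. The 2 KB2P tumours at 1 or more for Cul4a were again the like pair 24 and 26, and 1 remains without either. Mcl1, an inhibitor of apoptosis, stood at 2.32 there, against 2 KB2P tumours at 1 or more and a KB2P median of 0.0026. On distal chromosome 6 of tumour 131.03A, Ccnd2, a cyclin of the G1 phase, stood at 2.40. Cdkn1b, an inhibitor of cyclin-dependent kinases on the same chromosome, stood at 2.34 there. For each, 1 KB2P tumour was at 1 or more, with a highest KB2P value of 1.95 for Ccnd2 and 2.76 for Cdkn1b. Low-level gain was wide in KB2P at both genes, with Ccnd2 gained in 15 and Cdkn1b in 16 of 25 tumours, against 1 of 6 in KP for each.

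**Figure D5:**
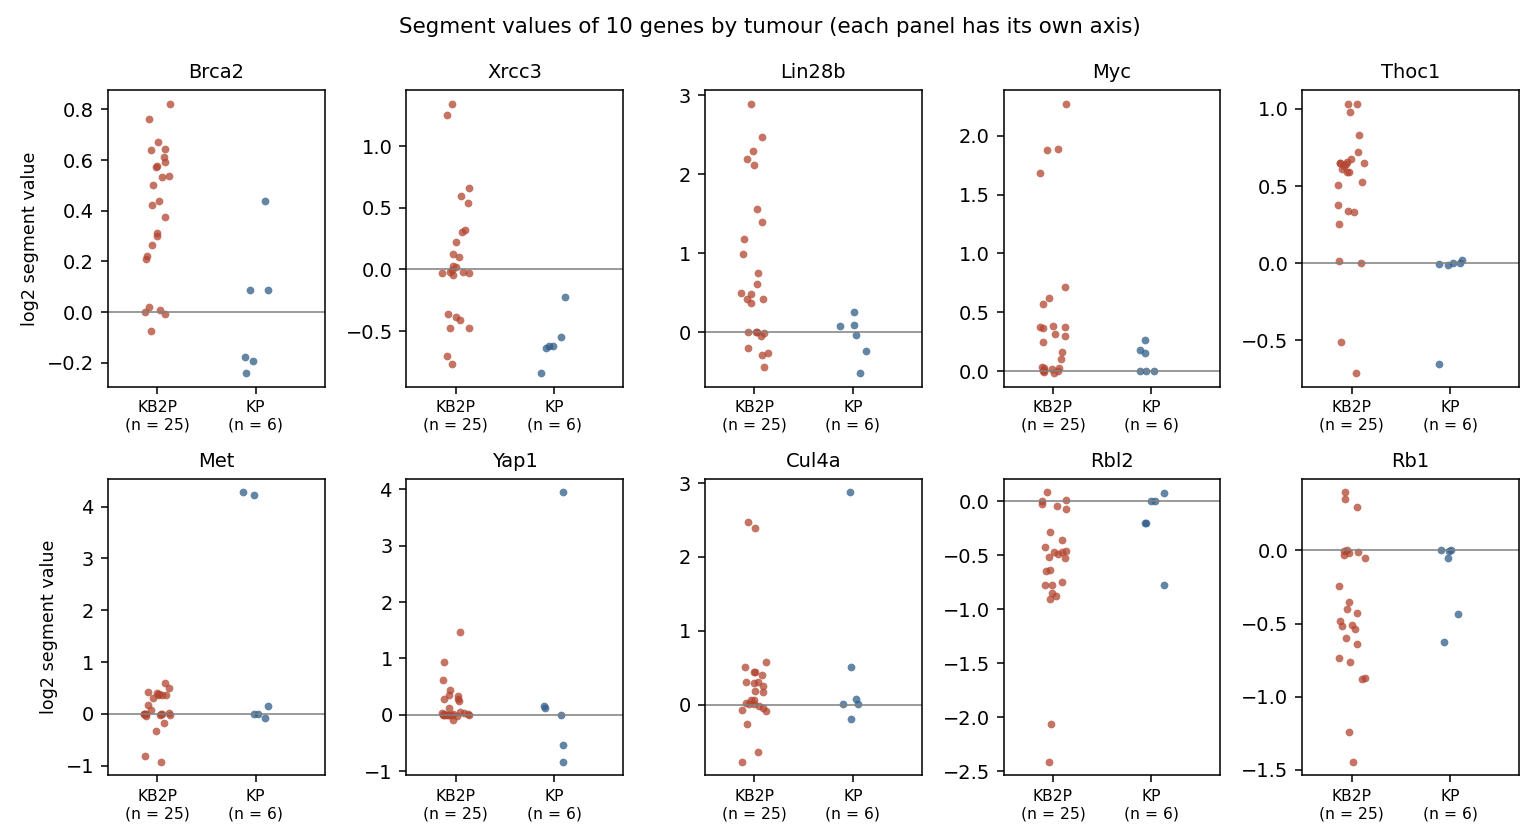
Log2 segment value of 10 genes in each tumour, KB2P (n = 25) left and KP (n = 6) right in every panel, each with its own axis; the grey line is 0. Met and Yap1 have their highest values in KP tumours (4.28 and 3.95), and Lin28b and Myc in KB2P tumours (2.89 and 2.27).

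Of the 18 cell cycle genes, 0 had an unadjusted limma p under 0.05, beside 6.68% of all genes. E2f1, a transcription factor of S-phase genes, and Bcl2l1, an inhibitor of apoptosis from the list of amplified genes, shared a segment on chromosome 2, gained in 11 of 25 KB2P and 0 of 6 KP tumours (Fisher's exact test, unadjusted p = 0.0658). Cdk2, a kinase of the G1 to S transition, was lost in 12 of 25 KB2P and 1 of 6 KP tumours (Fisher's exact test, unadjusted p = 0.359).

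Tumour suppressors were lost in 24.1% of KB2P calls and 12.0% of KP calls, against 19.1% in KB2P and 12.1% in KP over all genes. Of the 32 measured, 3 (9.4%, beside 6.68% of all genes) had an unadjusted limma p under 0.05 and all 3 were higher in KB2P. Rbl2 (chr8:91070057-91123844), a pocket protein related to Rb1, was the listed gene most often lost in KB2P. Its value ran from -2.41 through -0.49 to 0.087 in KB2P and was 0.0051, -0.20, -0.20, 0.075, -0.78 and 0.0027 in KP. It was lost in 17 of 25 KB2P and 1 of 6 KP tumours, with 2 KB2P tumours at -1 or less. Rbl2 was named for these KB2P counts, so no p-value is set beside them.

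Rb1 itself (chr14:73192858-73325951), the gatekeeper of entry into the cell cycle, was lost in 13 of 25 KB2P and 2 of 6 KP tumours. Its lowest values were -1.44 in KB2P and -0.63 in KP. Inpp4b (chr8:81342266-82134312), a phosphatase that restrains PI3K signalling, was lost in 14 of 25 KB2P and 1 of 6 KP tumours, with 2 KB2P tumours at -1 or less. Foxp1, a transcription factor on chromosome 6, was gained in 10 of 25 KB2P and 0 of 6 KP tumours and averaged 0.20 ± 0.33 in KB2P and -0.17 ± 0.33 in KP. Keap1, an adaptor that marks the Nrf2 protein for breakdown, averaged 0.19 ± 0.39 in KB2P and -0.22 ± 0.40 in KP. Foxp1 and Keap1 both had a limma adjusted p of 0.607.

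Chromosome 10 split the suppressors on it. Lats1, a kinase of the Hippo pathway near its start, was gained in 10 and lost in 5 KB2P tumours, with 3 at 1 or more, or 2 without either of tumours 24 and 26. Stk11, the kinase LKB1, farther along at chr10:80115767-80130679, was lost in 13 and gained in 3, with 2 at 1 or more. In KP, Lats1 was called altered in 0 of 6 tumours and Stk11 lost in 1. Neither had an unadjusted limma p under 0.05. Of the 3 drug transporter genes measured, 0 did so, beside 6.68% of all genes. Abcc1 averaged 0.027 ± 0.28 in KB2P and -0.032 ± 0.11 in KP. Abcg2 averaged 0.18 ± 0.25 in KB2P and 0.16 ± 0.63 in KP, with 1.37 in KP tumour 236.1.

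The places most often changed in KB2P, beyond those above, were broad. The genes of this paragraph were chosen by their KB2P counts, so no p-value is set beside them. On chromosome 6 the peak of gain was 18 of 25 KB2P tumours at Casc1 (chr6:145174833-145211017), against 1 of 6 KP tumours, where KP tumour 131.03A stood at 3.58. Losses peaked on chromosome 8 at 17 KB2P tumours over 25 genes that include Rbl2. On chromosome 10, Creb3l3, a transcription factor of liver and gut, was lost in 15 of 25 KB2P and 1 of 6 KP tumours. On chromosome 14 the peak of loss, 14 of 25 KB2P tumours, was shared by 47 genes. Among them Slitrk6, a neuronal membrane protein, was lost in 2 of 6 KP tumours, with 4 KB2P tumours at -1 or less. On chromosome 12 the peak of loss was 13 KB2P tumours, shared by 60 genes that include Rad51b. At Rad51b, 5 of 6 KP tumours also had a loss.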

How the data were processed

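Per the labels' protocols, tumour DNA was sequenced as single reads, aligned with BWA, binned at 20 kb and corrected for GC content and mappability; the protocol text names a human build. The submitters' processing notes name build mm10, Picard, SAMtools 1.10, BWA 0.7.17 and cutadapt 2.5. The authors deposited, per gene symbol, log2 ratios, log2 segment values and a whole-number copy score. The deposited copy score is the segment value turned back to a linear scale, multiplied by 2 and rounded, in 99.992% of values. How segments were made, what the ratios are relative to and how bins became genes is not given in these sources. Depth is unknown, so no counting interval is given.

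Positions came from the RefSeq genes of GRCm38.p6: 32661 symbols matched as written, 30 through a former symbol, and 10822 had no position and entered only the shares and the tests per gene. Group means were compared by exact two-sided permutation tests, genes with limma 3.58.1 in R 4.3.3, and calls with Fisher's exact test, each with Benjamini-Hochberg adjustment. The remaining computation ran in Python 3.11.15 (pandas 2.3.3, SciPy 1.17.1, NumPy 2.4.6, matplotlib 3.10.9). The scripts were tested on simulated data. Alternatives covered thresholds, centring, chromosomes, library series, single tumours and the like profiles.

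Earlier results of these data were known when the groups, lists and naming rule were chosen. The text names the engineered genes, the 2 listed genes of smallest p per list (none was called) and all called genes. It also names listed genes at 1 or more or -1 or less in at least 2 tumours. From 4 chromosomes each, it names the gene most often gained and lost in KB2P. Usp14, Rock1, Colec12, Gm23350 and the neighbours of the chromosome 9 step were added after their values were seen. Erbb3, Shld3 and Abcb1a were not in the tables, and some results the rule would name are not reported here. Gene functions are general knowledge.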

Additional observations from a re-analysis of the deposited data

Results flagged for a closer look

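Among the 6 KP adenocarcinomas, 1 tumour stood far from the others (a gap to its nearest neighbour that takes most of the whole range) in 21 of 73 measures, chromosomes and named genes tested. The rule passes about 1 in 20 tests where values follow a normal distribution, and genes on a shared segment are not separate flags. Yap1, Birc2, Birc3, Ccnd2 and Cdkn1b were named through 1 KB2P and 1 KP tumour at 1 or more. Their flags followed in part from that choice, so the 21 cannot be set against that rate. No explanation was tested for any of them. The KB2P group, with 25 tumours, was not tested in this way.

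In tumour 131.03A the segment value was 2.32 for Mcl1, 2.88 for Cul4a, 2.40 for Ccnd2, 2.34 for Cdkn1b, 3.58 for Casc1 and 0.51 for Trp53, the share of genes at high-level gain was 2.22%, and Brca1 lay at -0.85, Rbl2 at -0.78, Inpp4b at -0.78 and the mean of chromosome 3 at -0.39. In 90.1 Yap1, Birc2 and Birc3 were at 3.95. In 236.1 Abcg2 was at 1.37.

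In tumour 89 Thoc1 was at -0.65, the means of chromosomes 13 and 18 were -0.66 and -0.64, 4 chromosomes were changed as a whole, and 0.262% of genes were at deep loss while the other KP tumours had none. In 39 Lats1 was at -0.24, which was also the mean of its whole chromosome 10 in that tumour. The means of chromosomes 2, 4, 5, 7 and 17 in tumour 39 likewise lay between -0.25 and -0.23.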

How the results depend on the processing

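The differences in large-scale transitions (14.8 to 22.5 over the alternatives, 15.4 to 17.0 without 1 KP tumour) and partly changed chromosomes (7.28 to 8.48 without 1 KP tumour) kept their direction and their call under every alternative run, including those without KB2P 24 or KB2P 26. The gained share, lost share and breakpoints lost their call in some fits without 1 KP tumour, while the altered share kept it in 6 of 6. The altered, gained and lost shares also lost it when segment values beyond 0.1 were counted. Breakpoints kept it with steps of at least 0.1 or 0.2 (exact permutation, adjusted p = 0.0269 and 0.0349). Whole-chromosome changes, high-level gains and deep losses passed under none of the alternatives. With 6 KP tumours, and no read depth in the tables, precision is limited by the number of tumours. Where no cause is named, it was not tested.

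Differences, KB2P minus KP, that no longer passed were as follows. With KP series 5490 only, they were 18.4 percentage points for the altered share, 12.4 for the gained share, 5.95 for the lost share and 91.2 breakpoints. With KP series 5289 only they were 16.0 for the gained share, 9.01 for the lost share and 138.2 breakpoints. With KB2P series 3196 only they were 11.1 for the gained and 6.43 for the lost share, and with KB2P series 3499 only 9.14 for the lost share and 113.0 breakpoints. The lost share over autosomes was 7.27. Counting segment values beyond 0.1 gave 7.75 for the altered share, 10.7 for the gained share and -2.92, the opposite direction, for the lost share, and values beyond 0.2 gave 1.07 for the lost share. Whole-chromosome changes at 90% of a chromosome turned to -0.033. Without 1 KP tumour the gained share differed by 12.8 to 15.3 (3 of 6 fits passed), the lost share by 5.39 to 9.32 (2 of 6) and breakpoints by 92.3 to 127.1 (3 of 6).

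The limma count was 23 genes on the log2 ratios before segmentation, 18 higher and 5 lower, against 3 on segments. It was 0, with 0 higher, on KP series 5490 only (1349 genes at an unadjusted p under 0.05) and on 5289 only (1772), and it ran from 0 to 3, with 0 to 3 higher, without 1 KP tumour. The correlation of altered share and transitions was 0.407 without KB2P 26, an alternative chosen after seeing the data, as were the 0.05 joining threshold, leaving out chromosome 7 and the other alternatives of that correlation.

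Among named genes, none of them called, the difference turned for Abcc1 on log2 ratios (-0.022), for Abcg2 after centring (-0.030) and for Cdk2 (0.021), Cul4a (0.20) and Casc1 (0.11) with KB2P series 3499 only. With KP series 5490 only it turned for Abcg2 (-0.19), Ccnd2 (-0.24) and Cdkn1b (-0.15). With KP series 5289 only it turned for Brca1 (-0.064), Yap1, Birc2 and Birc3 (0.48 each), Mcl1 (0.14), Cul4a (0.025) and Casc1 (0.74). Without 1 KP tumour the difference ran from -0.039 to 0.14 for Brca1, -0.11 to 0.26 for Abcg2, -0.53 to 0.42 for Yap1, Birc2 and Birc3, -0.34 to 0.15 for Mcl1, -0.41 to 0.20 for Cul4a, -0.11 to 0.47 for Ccnd2, -0.027 to 0.54 for Cdkn1b and -0.26 to 0.56 for Casc1.

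No paired analysis was possible because the tumour numbers only name tumours and the groups share none.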
